A study of Mus musculus with 23 samples.

Results

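Plasma of ApoE-Stab2-KO mice was compared with plasma of wildtype mice by its effect on RNA levels in aortic endothelial cells. The comparison holds the 12 of 23 arrays that the labels assign to these plasma genotypes, 6 ApoE-Stab2-KO and 6 Wildtype. All 24704 genes with a symbol were tested.

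The cells were primary endothelial cells of the mouse aorta, grown to confluence, and the labels give the strain C57BL/6J. Their medium then held 10% plasma in place of fetal calf serum for 48 h, and their RNA was hybridised to Affymetrix arrays as biotinylated cRNA. The ApoE-Stab2-KO donors lacked apolipoprotein E and Stabilin-2 and had eaten Western diet for 8 weeks. The ApoE-KO (5 arrays) and ApoE-Stab1-KO donors (6 arrays) had the same diet. Their arrays also entered the estimate of spread behind every p-value, and ApoE-Stab2-KO plasma is compared with them further below. For the Wildtype donors the labels name no diet, so an effect of genotype and one of diet cannot be told apart when Wildtype plasma is the control. Genotypes describe the donors, and the labels name no deletion in the cells. Nothing in the labels says whether replicates were separate cultures or used plasma of separate mice, so the p-values rest on sample-to-sample spread that may be technical.

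Apolipoprotein E is the ligand by which the liver clears remnant lipoproteins, and mice without it build up cholesterol-rich particles in plasma. Stabilin-2 is a scavenger receptor of sinusoidal endothelium that removes hyaluronan and other ligands from blood. Endothelial cells meet such plasma directly: they sense sterols through SREBP-2, which turns on the enzymes of cholesterol synthesis when membrane sterol is low, and fatty acids through PPAR receptors, and their Notch and VEGF signals balance sprouting against quiescence.

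All values are log2 RMA values, so a difference of 1 is a doubling. Pairs of arrays correlated at 0.992 to 0.997 over all genes. The 10 endothelial markers, Pecam1 and Cdh5 among them, lay between 8.27 and 12.8, against a median of 4.31 over all genes. Their mean per array ran from 11.1 to 11.2 in both groups. Of 70 measured markers of other cells in 8 lists, 18 lay above that median. The 5 above a level of 7 were Lyve1 (12.7), Flt4 (9.64) and Itga9 (7.26) of the lymphatic list, Cd68 (11.2) of the macrophage list and Smtn (10.3) of the smooth muscle list. Among the markers below it were Ptprc of leukocytes (2.98), Epcam of epithelium (3.09), Alb of hepatocytes (3.16), Prox1 of lymphatic endothelium (3.27) and Myh11 of smooth muscle (4.07). In each of the 9 marker lists 0 genes passed the test.

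Wildtype replicate 1 stood apart from the other arrays. Its score on the first principal component, which held 16.3% of the variance, was 21.1, against -0.143 to 8.77 for the other 5 Wildtype arrays. Without it, 26 genes were higher and 15 lower in place of 28 and 16. The calls of Acot2, Ap1ar, Cd36, Dda1, Hid1, Ldb2, Nipal1, Nsdhl and Smad1 ended, and some other genes passed instead. In that limma fit their adjusted p ran from 0.0532 to 0.126, with no change of direction. These 9 ended calls were the fewest for any array left out, where the number ran from 9 to 24. 

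Between ApoE-Stab2-KO and Wildtype plasma 44 genes differed (0.178% of those tested), 28 of them higher with ApoE-Stab2-KO plasma (0.113%) and 16 lower (0.0648%), at an adjusted p under 0.05 (limma with Benjamini-Hochberg adjustment over all genes; every adjusted p below is from this fit unless another is named, and ± marks the standard error of a difference). The higher genes included 4 enzymes of cholesterol synthesis, the retinoid and xenobiotic enzymes Cyp26b1, Dhrs9 and Cyp1b1, the secreted guidance cues Sema3c and Sema3e, the lipid genes Cd36 and Angptl4, and the growth factors Vegfa and Ereg. The lower genes included the Notch ligand Dll4, the platelet-derived growth factor Pdgfb, the adhesion genes Mcam, Itga4, Itga6 and Ptprm, the signal transducer Smad1, and Stab2 itself. All 44 were protein-coding and had a mean level above the median of all genes. In all 44 the 6 arrays of one group lay wholly above the 6 of the other, against 1.15% of all genes. The 44 were chosen by a test on these same arrays, so this separation is largely built in. It adds no support, here or where single called genes are described below.

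The differences were small. Their median size was 0.34, and 4 genes, all higher, reached 1.5-fold: Sprr1a, Cyp26b1, Sema3c and Mmp3. Over all genes the median difference was -0.002, and 49.0% of genes had a positive one. An unadjusted p under 0.05 was found for 2097 genes (8.49%), where 1235 would be expected with no difference. The last gene inside the threshold was Gsap (adjusted p = 0.0431), and the first outside it was the small nucleolar RNA gene Snord4a (0.0584).

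**Figure D1:**
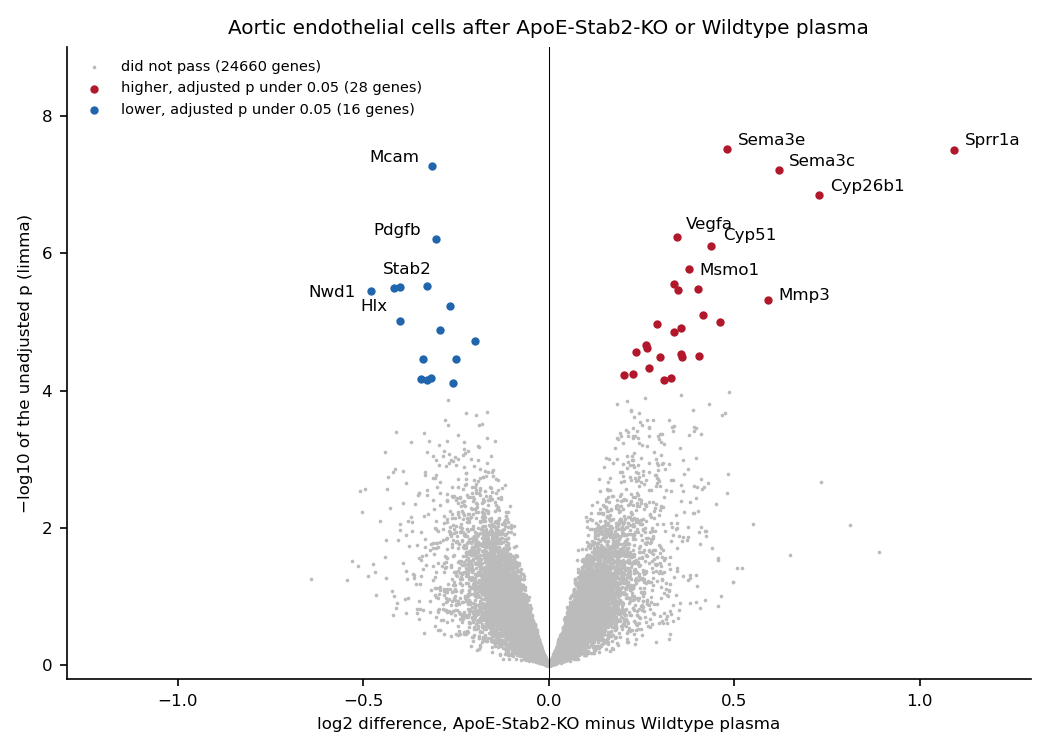
Each dot is 1 of 24704 genes, placed by its log2 difference (ApoE-Stab2-KO minus Wildtype plasma, horizontal) and by -log10 of its unadjusted p from limma (vertical). Red marks the 28 genes that were higher and blue the 16 that were lower at an adjusted p under 0.05. Sprr1a stands farthest to the right at 1.09, and the called gene farthest to the left, Nwd1, is at -0.48.

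In 12 fits that each left out 1 of the 12 arrays, 20 of the 44 genes passed every time. These were Angptl4, Cyp1b1, Cyp26b1, Cyp51, Gm2115, Hlx, Hs3st1, Itga4, Ivl, Mcam, Mmp3, Msmo1, Nwd1, Pdgfb, Ptprm, Sema3c, Sema3e, Sprr1a, Stab2 and Vegfa. The other 24 lost the call in at least 1 fit, at an adjusted p of at most 0.137, and 0 changed direction. Leaving out ApoE-Stab2-KO replicate 3 ended 24 calls and left 13 higher and 7 lower genes. Without ApoE-Stab2-KO replicate 6 there were 19 and 10, without Wildtype replicate 3 there were 27 and 10, without Wildtype replicate 4 there were 20 and 10, and without Wildtype replicate 5 there were 21 and 10. Fbp1, Gsap, Nipal1 and Pfkfb3 also lost their calls with limma's trend and robust settings (adjusted p of 0.0588 to 0.0709). Ap1ar, Fbp1, Gsap, Hid1, Itga6, Nsdhl, Smad1 and Tinagl1 lost theirs in a fit of the 12 arrays alone (0.0519 to 0.0854).

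Cholesterol synthesis was the pathway with the most calls. Of 11 measured genes of the list from squalene epoxidation to cholesterol, Lss, Cyp51, Msmo1 and Nsdhl were higher and 0 lower, and 10 had a positive difference. The list's median difference was 0.23, against -0.002 over all genes. The mean of its genes per array ran from 8.14 to 8.28 with ApoE-Stab2-KO plasma and from 7.90 to 8.04 with Wildtype plasma, with no overlap. That mean includes the genes called on these same arrays, so the gap is partly built in. Nor was it particular to this list. List means of the mevalonate, fatty acid synthesis, PPAR, Notch, retinoid and ATF4 lists did not overlap between the groups either.

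Lss, lanosterol synthase, closes squalene epoxide into the first sterol. It ran from 7.37 through a median of 7.40 to 7.66 on the 6 ApoE-Stab2-KO arrays and from 7.03 through a median of 7.09 to 7.17 on the 6 Wildtype arrays. The difference was 0.36 ± 0.07, adjusted p = 0.0242. The groups did not overlap, but ApoE-Stab2-KO replicate 2 lay far above its group at 7.66. The call ended without ApoE-Stab2-KO replicate 2, 3 or 5 or Wildtype replicate 4 or 5, with adjusted p up to 0.0692.

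Cyp51 removes the first methyl group from lanosterol. Its values went from 8.23 through a median of 8.27 to 8.34 on the 6 ApoE-Stab2-KO arrays and from 7.64 through a median of 7.89 to 8.00 on the 6 Wildtype arrays. It rose by 0.44 ± 0.07, adjusted p = 0.00244, and the ApoE-Stab2-KO arrays lay close together. Msmo1, the methylsterol monooxygenase of later demethylation steps, read 9.79, 9.93 and 10.07 (lowest, median and highest array) with ApoE-Stab2-KO plasma and 9.45, 9.60 and 9.61 with Wildtype plasma. It rose by 0.38 ± 0.06, adjusted p = 0.00471. Both genes passed in all 12 leave-one-out fits.

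Nsdhl, the sterol dehydrogenase that works with Msmo1 to remove methyl groups, had 8.69, 8.84 and 8.90 with ApoE-Stab2-KO plasma and 8.30, 8.53 and 8.67 with Wildtype plasma. The highest Wildtype array lay just under the lowest ApoE-Stab2-KO array. It rose by 0.31 ± 0.07, adjusted p = 0.041, but kept its call in only 3 of 12 leave-one-out fits and had the highest adjusted p, 0.126, without Wildtype replicate 1.

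The remaining 7 genes of the list did not pass. Hsd17b7 differed by 0.36 (adjusted p = 0.172), Sc5d by 0.23 (adjusted p = 0.119), Sqle, the squalene epoxidase, by 0.22 (adjusted p = 0.119) and Dhcr7, the last reductase, by 0.16 (adjusted p = 0.365). In the earlier mevalonate part of the pathway, 0 of 8 measured genes passed, 7 had a positive difference and the median was 0.17. Hmgcs1, which makes HMG-CoA, differed by 0.19 (adjusted p = 0.202), and Fdft1, squalene synthase, by 0.22 (adjusted p = 0.486).

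**Figure D2:**
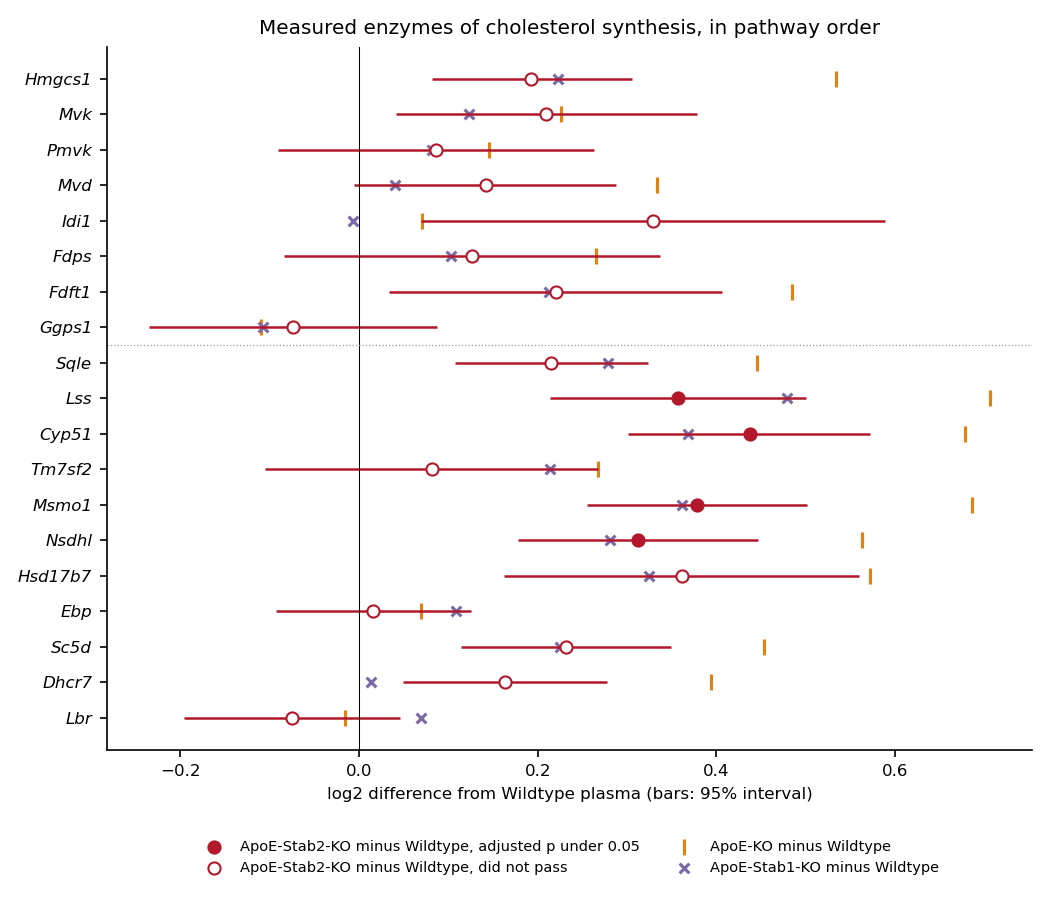
Log2 difference from Wildtype plasma (horizontal) for the 19 measured enzymes in pathway order, the mevalonate part above the dotted line. Red circles with 95% intervals are ApoE-Stab2-KO plasma, filled where the adjusted p was under 0.05; orange bars are ApoE-KO and violet crosses ApoE-Stab1-KO plasma, all against the same 6 Wildtype arrays. The 4 filled circles are Lss, Cyp51, Msmo1 and Nsdhl, at 0.31 to 0.44.

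The promoters of these 4 sterol genes are shown because the genes were higher together and because CCAAT boxes, bound by NF-Y, are known to work beside SREBP sites. Each line gives the 250 bases before the RefSeq transcription start on the mouse assembly GRCm38.p6, 5′ to 3′ on the gene's strand. Capitals mark CCAAT or its complement ATTGG.
Lss chr10:76531355-76531604 (+ strand): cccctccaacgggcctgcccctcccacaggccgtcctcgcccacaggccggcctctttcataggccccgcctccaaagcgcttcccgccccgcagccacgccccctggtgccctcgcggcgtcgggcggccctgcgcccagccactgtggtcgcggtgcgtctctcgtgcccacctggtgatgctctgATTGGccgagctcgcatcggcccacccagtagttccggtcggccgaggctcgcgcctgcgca
Cyp51 chr5:4104698-4104947 (- strand): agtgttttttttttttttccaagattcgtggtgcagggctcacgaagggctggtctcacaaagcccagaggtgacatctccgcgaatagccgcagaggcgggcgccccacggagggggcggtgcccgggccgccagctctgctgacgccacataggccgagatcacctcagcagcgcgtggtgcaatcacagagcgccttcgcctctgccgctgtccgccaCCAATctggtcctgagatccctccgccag
Msmo1 chr8:64733579-64733828 (- strand): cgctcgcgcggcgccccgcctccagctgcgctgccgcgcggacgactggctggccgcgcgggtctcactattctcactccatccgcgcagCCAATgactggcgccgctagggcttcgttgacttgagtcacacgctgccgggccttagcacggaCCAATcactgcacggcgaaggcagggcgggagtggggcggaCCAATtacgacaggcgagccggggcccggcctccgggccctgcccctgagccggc
Nsdhl chrX:72918271-72918520 (+ strand): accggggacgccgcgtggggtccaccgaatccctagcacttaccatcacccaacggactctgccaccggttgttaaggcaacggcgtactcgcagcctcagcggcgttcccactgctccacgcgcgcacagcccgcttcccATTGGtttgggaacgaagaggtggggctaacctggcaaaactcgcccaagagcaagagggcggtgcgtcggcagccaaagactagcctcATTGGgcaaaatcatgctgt

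Msmo1 held 3 such boxes, Nsdhl 2, and Lss and Cyp51 1 each. In windows from 250 bases before to 50 after the start, on both strands, CCAAT was in 10 of 12 windows (83.3%) of the list that runs from squalene to cholesterol and in 6 of 7 (85.7%) of the mevalonate list, against 37.4% of 32851 windows of all genes. It was in 15 of 29 windows (51.7%) of the 28 higher genes and in 6 of 11 (54.5%) of the 16 lower genes. The sterol element was searched for in only 1 form, TCACNCCAC. That form was in 1.24% of all windows, in 0 of the 12 windows of the first list and in 1 of the 7 (14.3%) of the mevalonate list. Other forms were not searched for, so a lack of matches does not show a lack of SREBP sites. The E-box CACGTG was in 7.15% of all windows, in 3 of the 12 and in 0 of the 7. These are matches of letters and not binding sites.

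Genes that control the pathway gave 0 calls. Among 18 measured genes of SREBP control and sterol sensing 0 passed, and their median difference was 0.02. Insig1, which holds SREBP in the endoplasmic reticulum and is itself an SREBP target, differed by 0.22 (adjusted p = 0.172), Tmem97, a sterol-responsive membrane protein, by 0.30 (adjusted p = 0.247) and Srebf2, which encodes SREBP-2, by 0.14 (adjusted p = 0.509). Of 20 genes of fatty acid synthesis and desaturation 0 passed, 16 had a positive difference and the median was 0.08. Fads3 came nearest (0.22, adjusted p = 0.0899), followed by the stearoyl-CoA desaturase Scd1 (0.29, adjusted p = 0.181), the elongase Elovl6 (0.23, adjusted p = 0.188) and the desaturase Fads2 (0.20, adjusted p = 0.227).

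Cholesterol efflux held 0 called genes. Of 11 measured genes of efflux and LXR targets 9 had a negative difference (median -0.06). The lists of Stabilins and their ligands and of Notch genes had like medians, -0.06 and -0.05. Abca1, which exports cholesterol to apolipoprotein A-I, averaged 8.07 with ApoE-Stab2-KO and 8.37 with Wildtype plasma, a difference of -0.30 (adjusted p = 0.137). Smpdl3a, another LXR target, differed by -0.28 (adjusted p = 0.374).

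In the list of PPAR targets and fatty acid handling, 2 of 25 measured genes were higher and 0 lower, with a median of 0.03. Angptl4, a secreted inhibitor of lipoprotein lipase, ran from 10.33 through a median of 10.35 to 10.45 on the 6 ApoE-Stab2-KO arrays and from 9.93 through a median of 10.06 to 10.09 on the 6 Wildtype arrays. It rose by 0.34 ± 0.06, adjusted p = 0.00546, with no overlap between the groups, and passed in all leave-one-out fits.

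Cd36, the fatty acid and oxidised-lipoprotein receptor, read 10.44, 10.47 and 10.59 with ApoE-Stab2-KO and 10.04, 10.12 and 10.23 with Wildtype plasma. Every ApoE-Stab2-KO array was above every Wildtype array. It rose by 0.36 ± 0.07, adjusted p = 0.0244, but passed in 3 of 12 leave-one-out fits, with adjusted p up to 0.0738 without ApoE-Stab2-KO replicate 4. Lpl, the lipase that Angptl4 inhibits, had a larger difference with a wide spread (0.48 ± 0.14, adjusted p = 0.207), and Gpihbp1, which anchors that lipase on capillary endothelium, differed by -0.23 (adjusted p = 0.308). Acot2, a mitochondrial acyl-CoA thioesterase outside the list, rose by 0.27 ± 0.05, adjusted p = 0.0321, and kept its call in 2 of 12 leave-one-out fits (up to 0.104 without ApoE-Stab2-KO replicate 3).

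Stab2 is the receptor that the plasma donors lacked, and the cultured cells expressed it. Its values ran from 8.81 through a median of 8.88 to 9.15 on the 6 ApoE-Stab2-KO arrays and from 9.24 through a median of 9.32 to 9.42 on the 6 Wildtype arrays. It fell by 0.40 ± 0.07 (adjusted p = 0.00546), every ApoE-Stab2-KO array was below every Wildtype array, and the call held in all leave-one-out fits. Against the same Wildtype arrays its differences were -0.29 for ApoE-KO and -0.39 for ApoE-Stab1-KO plasma, and the labels name no Stab2 deletion in those donors.

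The other genes of that system did not pass. Stab1 differed by -0.10 (adjusted p = 0.635) and Apoe by -0.12 (adjusted p = 0.742), the latter near the median level of all genes. The Stabilin ligands Tgfbi, Postn and Reln differed by 0.02 (adjusted p = 0.966), 0.08 (adjusted p = 0.719) and 0.04 (adjusted p = 0.861), and Postn and Reln had low values on all arrays. Of 10 measured genes of Stabilins and their ligands 1 was lower and 0 higher, with a median of -0.06. Among 21 lipoprotein and scavenger receptors, 1 was higher (Cd36) and 1 lower (Stab2), with a median of 0.02. Leaving out ApoE-Stab2-KO replicate 4 turned that median to -0.009, and leaving out replicate 2 of the same group gave 0.042.

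The strongest rise of all was in Sprr1a, a small proline-rich protein of the cornified envelope of skin. It ran from 6.35 through a median of 6.54 to 6.83 on the 6 ApoE-Stab2-KO arrays and from 5.20 through a median of 5.45 to 5.74 on the 6 Wildtype arrays. The difference of 1.09 ± 0.14 is 2.13-fold (adjusted p = 0.000385), and the gap between the groups was wider than the range within either. Ivl, involucrin, another envelope protein, read 6.45, 6.57 and 6.73 with ApoE-Stab2-KO and 6.11, 6.26 and 6.33 with Wildtype plasma. It rose by 0.35 ± 0.06, adjusted p = 0.00546.

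Retinoid enzymes formed another group. Of 24 measured genes of retinoid metabolism and the aryl hydrocarbon receptor, 3 were higher and 0 lower, with a median of 0.03. Cyp26b1, which breaks down retinoic acid, ran from 8.13 through a median of 8.22 to 8.29 on the 6 ApoE-Stab2-KO arrays and from 7.34 through a median of 7.46 to 7.76 on the 6 Wildtype arrays. It rose by 0.73 ± 0.10, or 1.66-fold (adjusted p = 0.000704), and the ApoE-Stab2-KO arrays spanned less than the Wildtype arrays.

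Cyp1b1, a target of the aryl hydrocarbon receptor that oxidises steroids, retinoids and xenobiotics, went from 7.38 through a median of 7.45 to 7.65 on the 6 ApoE-Stab2-KO arrays and from 6.81 through a median of 7.01 to 7.22 on the 6 Wildtype arrays. It rose by 0.46 ± 0.08, adjusted p = 0.0119. Dhrs9, a dehydrogenase that oxidises retinol, read 9.15, 9.25 and 9.33 with ApoE-Stab2-KO and 8.86, 9.01 and 9.07 with Wildtype plasma.

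Neither of these genes overlapped between the groups. Dhrs9 rose by 0.26 ± 0.05, adjusted p = 0.0199, and its call ended without ApoE-Stab2-KO replicate 1 or 3 or Wildtype replicate 2 or 5 (up to 0.0728). Dhrs3, a retinal reductase known to be induced by retinoic acid, differed by 0.27 (adjusted p = 0.138), and the aldehyde dehydrogenase Aldh1a7 by 0.42 (adjusted p = 0.247).

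**Figure D3:**
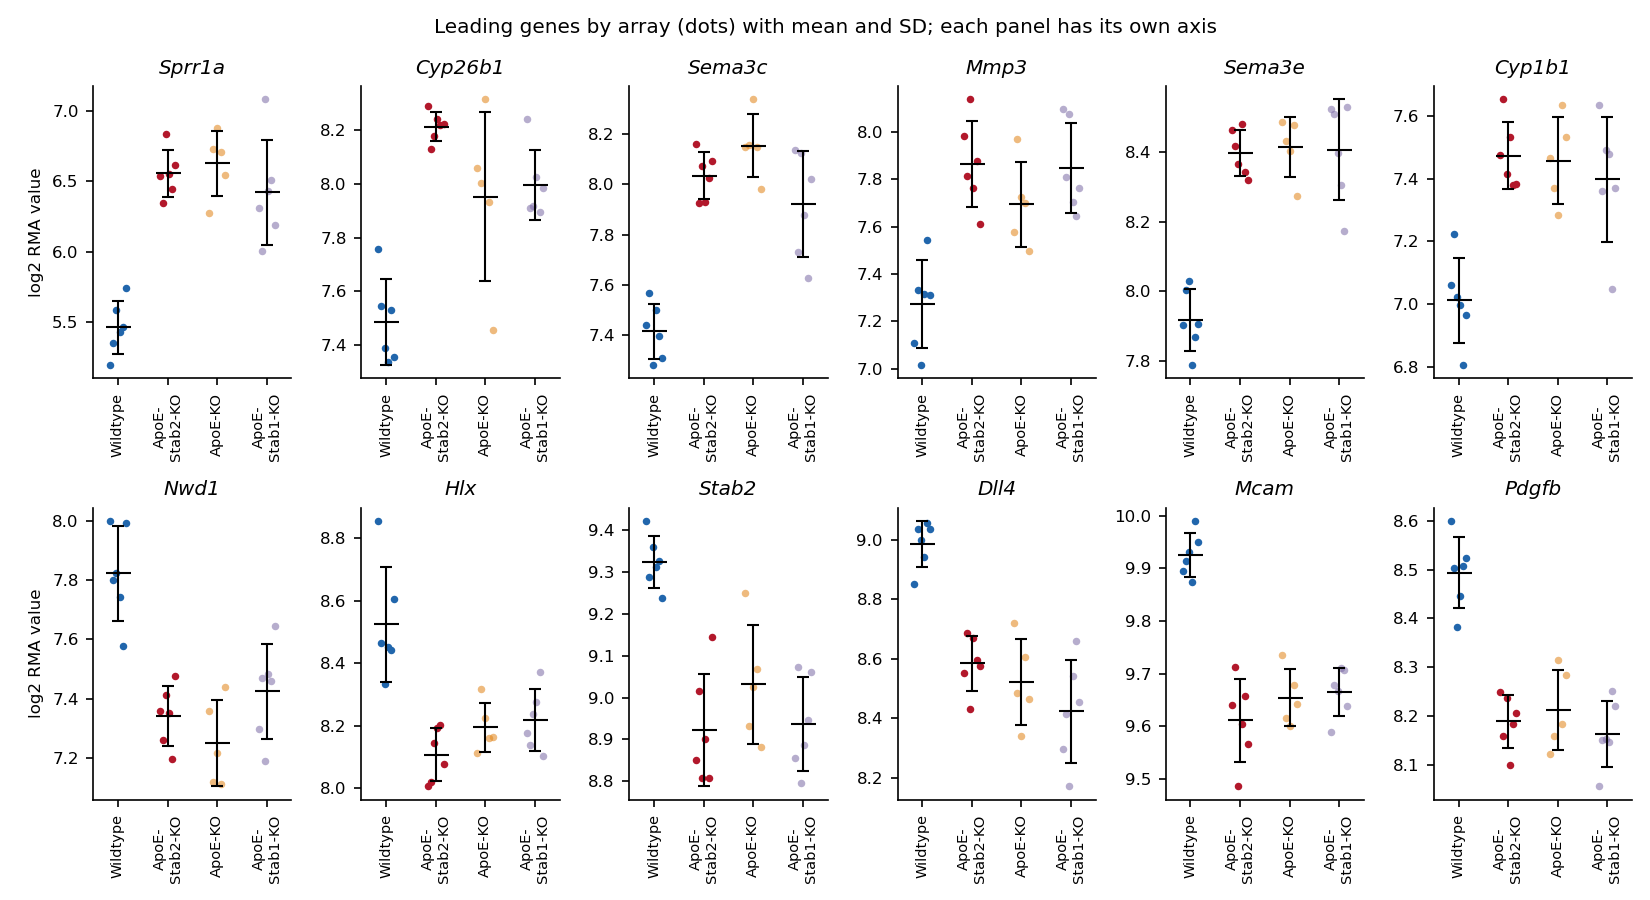
Log2 RMA value (vertical) of 12 leading genes on each array (dots), with the mean and SD of each plasma group in black; upper row higher and lower row lower with ApoE-Stab2-KO than with Wildtype plasma, each panel on its own axis. The red ApoE-Stab2-KO dots lie wholly above or below the blue Wildtype dots in all 12 panels, and the paler ApoE-KO and ApoE-Stab1-KO dots are shown for comparison.

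Guidance and angiogenesis genes changed in both directions. Of 35 genes of semaphorins and guidance, 2 were higher and 0 lower, while the median was -0.02. Sema3c, a secreted semaphorin, ran from 7.93 through a median of 8.05 to 8.16 on the 6 ApoE-Stab2-KO arrays and from 7.28 through a median of 7.42 to 7.57 on the 6 Wildtype arrays. It rose by 0.62 ± 0.08, or 1.54-fold (adjusted p = 0.000385).

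Sema3e, the ligand of plexin D1, went from 8.32 through a median of 8.39 to 8.48 on the 6 ApoE-Stab2-KO arrays and from 7.79 through a median of 7.91 to 8.03 on the 6 Wildtype arrays. It rose by 0.48 ± 0.06, adjusted p = 0.000385, and for both semaphorins the groups were clearly apart. Plxnd1, its receptor on endothelium, averaged 10.6 with ApoE-Stab2-KO and 10.8 with Wildtype plasma, a difference of -0.19 (adjusted p = 0.14), with Wildtype replicate 1 far above its group.

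Vegfa, the main growth factor of sprouting vessels, read 7.96, 8.04 and 8.15 with ApoE-Stab2-KO and 7.60, 7.72 and 7.77 with Wildtype plasma. It rose by 0.35 ± 0.05, adjusted p = 0.00222, with no overlap. Pdgfb, which recruits pericytes to new vessels, read 8.10, 8.19 and 8.25 with ApoE-Stab2-KO and 8.38, 8.51 and 8.60 with Wildtype plasma. It fell by 0.31 ± 0.05 (adjusted p = 0.00222), again with no overlap. Both were the only calls among 24 measured VEGF, PDGF and angiopoietin genes, whose median was -0.02 (0.005 without ApoE-Stab2-KO replicate 2). Both passed in all leave-one-out fits.

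Dll4, the Notch ligand of tip and arterial cells, ran from 8.43 through a median of 8.59 to 8.69 on the 6 ApoE-Stab2-KO arrays and from 8.85 through a median of 9.02 to 9.06 on the 6 Wildtype arrays. It fell by 0.40 ± 0.07 (adjusted p = 0.0119), with every ApoE-Stab2-KO array below every Wildtype array, and the call ended only without ApoE-Stab2-KO replicate 3 (0.0505). It was the only call among 23 Notch genes, of which 15 had a negative difference (median -0.05). The Notch ligand Jag2 differed by -0.30 (adjusted p = 0.172), the Notch target and arterial ephrin Efnb2 by -0.20 (adjusted p = 0.0948), the glycosyltransferase Mfng by -0.19 (adjusted p = 0.112), Notch1 by -0.18 (adjusted p = 0.412) and Notch4 by -0.13 (adjusted p = 0.487).

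Smad1, which carries BMP signals to the nucleus, read 8.61, 8.74 and 8.83 with ApoE-Stab2-KO and 8.87, 8.97 and 9.11 with Wildtype plasma. It fell by 0.25 ± 0.05 (adjusted p = 0.0249), without overlap, but passed in 5 of 12 leave-one-out fits (up to 0.0858 without ApoE-Stab2-KO replicate 3). It was the only call among 22 BMP genes, whose median was 0.01 and changed sign with the array left out. The BMP targets Id1, Id2 and Id3 lay the other way, at 0.34 (adjusted p = 0.113), 0.27 (adjusted p = 0.202) and 0.43 (adjusted p = 0.0762).

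Mcam, the adhesion molecule CD146, ran from 9.49 through a median of 9.62 to 9.71 on the 6 ApoE-Stab2-KO arrays and from 9.87 through a median of 9.92 to 9.99 on the 6 Wildtype arrays. It fell by 0.31 ± 0.04 (adjusted p = 0.000385). This was the smallest adjusted p among the lower genes, and the groups lay far apart relative to their spread. Among 29 endothelial identity genes 1 was lower and 0 higher, and 23 had a negative difference (median -0.05). Emcn and Egfl7, both restricted to endothelium, differed by -0.15 (adjusted p = 0.128) and -0.14 (adjusted p = 0.222), and Vwf, von Willebrand factor, by 0.43 (adjusted p = 0.231).

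Itga4, the integrin subunit that binds VCAM-1 and fibronectin, went from 8.21 through a median of 8.24 to 8.32 on the 6 ApoE-Stab2-KO arrays and from 8.45 through a median of 8.59 to 8.67 on the 6 Wildtype arrays. It fell by 0.33 ± 0.05 (adjusted p = 0.00546). Itga6, a laminin-binding integrin subunit, read 10.72, 10.77 and 10.84 with ApoE-Stab2-KO and 10.94, 10.98 and 11.04 with Wildtype plasma.

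Neither integrin gene overlapped between the groups. Itga6 fell by 0.20 ± 0.04 (adjusted p = 0.0182), the smallest difference called, and its call ended without ApoE-Stab2-KO replicate 3, 4 or 6 or Wildtype replicate 4 (up to 0.0605). Ptprm, a receptor tyrosine phosphatase of endothelial contacts, read 9.96, 10.05 and 10.06 with ApoE-Stab2-KO and 10.19, 10.28 and 10.44 with Wildtype plasma. It fell by 0.27 ± 0.05 (adjusted p = 0.00795), with no overlap.

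Lower transcription and signalling genes were led by Nwd1, a NACHT and WD-repeat protein. It ran from 7.20 through a median of 7.36 to 7.48 on the 6 ApoE-Stab2-KO arrays and from 7.58 through a median of 7.81 to 8.00 on the 6 Wildtype arrays. It fell by 0.48 ± 0.08 (adjusted p = 0.00546), the largest fall among the called genes.

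Hlx, a homeobox transcription factor, read 8.01, 8.11 and 8.20 with ApoE-Stab2-KO and 8.33, 8.46 and 8.86 with Wildtype plasma. It fell by 0.42 ± 0.07 (adjusted p = 0.00546), and no arrays overlapped for either gene. Ccdc88c, a binding partner of Dishevelled, fell by 0.29 ± 0.05 (adjusted p = 0.0135, 0.0519 without ApoE-Stab2-KO replicate 3). Dipk2b fell by 0.34 ± 0.07 (adjusted p = 0.0249), Gem, a small GTPase, by 0.33 ± 0.07 (0.041), Ldb2, a LIM-domain-binding cofactor, by 0.32 ± 0.07 (0.0405) and Gsap by 0.26 ± 0.05 (0.0431). These last 4 kept their calls in 2, 3, 1 and 3 of 12 leave-one-out fits.

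Psat1, an enzyme of serine synthesis and an ATF4 target, ran from 8.32 through a median of 8.48 to 8.57 on the 6 ApoE-Stab2-KO arrays and from 8.07 through a median of 8.12 to 8.20 on the 6 Wildtype arrays. It rose by 0.34 ± 0.06, adjusted p = 0.0137, with no overlap, and its call ended only without ApoE-Stab2-KO replicate 3 (0.0559). It was the only call among 29 measured genes of ATF4 and the amino acid response (median 0.12). Of these, 23 had a positive difference and 12 an unadjusted p under 0.05 in limma, against 8.49% of all genes. Such a p was also found for 13 of 35 semaphorin and guidance genes, 11 of 27 immediate early genes and 11 of 28 hypoxia and glycolysis genes. The shares were 8 of 11 from squalene to cholesterol, 4 of 8 in the mevalonate list and 8 of 23 Notch genes. In the lysosome list such a p was found for 0 of 22. Of the 29 ATF4 genes, 27 lay above the median level of all genes, and the share over genes of like level was not computed. The asparagine synthetase Asns differed by 0.40 (adjusted p = 0.113), the mitochondrial serine enzyme Shmt2 by 0.24 (adjusted p = 0.13), Atf5 by 0.31 (adjusted p = 0.183) and the folate enzyme Aldh1l2 by 0.48 (adjusted p = 0.267), with Wildtype replicate 1 the lowest of its group in the last.

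Pfkfb3, which drives glycolysis in sprouting endothelium, read 6.30, 6.45 and 6.48 with ApoE-Stab2-KO and 6.01, 6.16 and 6.22 with Wildtype plasma. It rose by 0.30 ± 0.06, adjusted p = 0.0244, and passed in 4 of 12 leave-one-out fits (up to 0.0794 without Wildtype replicate 4). Fbp1, an enzyme of gluconeogenesis, read 6.06, 6.29 and 6.40 with ApoE-Stab2-KO and 6.50, 6.54 and 6.83 with Wildtype plasma. It fell by 0.34 ± 0.07 (adjusted p = 0.041), and passed in 2 of 12 such fits (up to 0.137 without ApoE-Stab2-KO replicate 3). Neither gene overlapped between the groups. With Vegfa these were the only calls among 28 measured hypoxia and glycolysis genes, whose median was 0.06.

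Suox, the mitochondrial sulfite oxidase, read 7.31, 7.39 and 7.45 with ApoE-Stab2-KO and 6.78, 7.08 and 7.10 with Wildtype plasma. It rose by 0.36 ± 0.07, adjusted p = 0.0131, with Wildtype replicate 1 far below its group, and its call ended only without ApoE-Stab2-KO replicate 3 (0.0505).

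A matrix protease and an enzyme of heparan sulfate synthesis gave 2 further rises. Mmp3, the protease stromelysin-1, ran from 7.61 through a median of 7.85 to 8.14 on the 6 ApoE-Stab2-KO arrays and from 7.02 through a median of 7.32 to 7.54 on the 6 Wildtype arrays. It rose by 0.59 ± 0.10, or 1.51-fold (adjusted p = 0.00711), as the only call among 21 matrix proteases and inhibitors (median 0.02). Adamts9, a protease of the same list, differed by -0.22 (adjusted p = 0.091). Hs3st1, which adds the rare sulfate of heparan sulfate that antithrombin needs, read 7.72, 7.83 and 8.07 with ApoE-Stab2-KO and 7.38, 7.46 and 7.60 with Wildtype plasma. It rose by 0.42 ± 0.07, adjusted p = 0.0105, and neither gene overlapped between groups.

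Ereg, epiregulin, a ligand of the EGF receptor, read 7.91, 8.07 and 8.13 with ApoE-Stab2-KO and 7.70, 7.76 and 7.79 with Wildtype plasma. It rose by 0.29 ± 0.05, adjusted p = 0.0119 (0.0505 without ApoE-Stab2-KO replicate 3), with no overlap, as the only call among 17 measured EGF family genes (median 0.02). Klhdc8a, a kelch-domain protein, rose by 0.40 ± 0.08, adjusted p = 0.0244, and passed in 5 of 12 leave-one-out fits. The remaining higher genes were Gm2115, a predicted gene (0.40 ± 0.07, adjusted p = 0.00546), Nipal1, Dda1, Tinagl1, Hid1 and Ap1ar. The last 5 differed by 0.20 to 0.33 at adjusted p of 0.0216 to 0.0405, and kept their calls in 2 to 6 of 12 leave-one-out fits.

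Of 38 pathway lists, 14 held a called gene and 24 held 0. The lists with 0 calls covered leukocyte adhesion and chemokines, interferon-stimulated genes, MHC and complement, flow-responsive genes, haemostasis, junctions, TGF-beta and YAP targets, mesenchymal transition, matrix, the cell cycle, NRF2 targets, the unfolded protein response, heat shock, p53 targets, immediate early genes, the clock, glucocorticoid targets, the GIMAP and Ly6 families, the lysosome and the respiratory chain, besides the mevalonate, SREBP, fatty acid and efflux lists above. In 3 of the 38 lists the median was at least 0.1 from 0: the mevalonate list, the list from squalene to cholesterol, and the ATF4 list. Over all genes the median standard error of a difference was 0.067.

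To see where ApoE-Stab2-KO plasma differed from other plasma of the same diet, the same 44 genes were read against ApoE-KO and ApoE-Stab1-KO plasma. All of these contrasts use the same 6 ApoE-Stab2-KO arrays that entered the choice of the 44 genes. In limma's fit 0 of 44 passed against ApoE-KO plasma, where 6 genes of the whole array did (0.0243%), and 12 of 44 had an unadjusted p under 0.05, as did 2065 of all 24704 genes (8.36%). Against ApoE-Stab1-KO plasma 0 of 44 passed, where 12 genes of the array did (0.0486%), and 13 had an unadjusted p under 0.05, as did 2712 of all 24704 genes. Since the ApoE-Stab2-KO arrays helped to choose the 44, nothing is read from these shares. Over the 44 genes the 95% interval, not adjusted for the number of genes, reached a median of 0.137 and 0.131 to either side.

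The sterol enzymes stood lower than with ApoE-KO plasma without passing. Msmo1 differed by -0.31 (95% interval -0.44 to -0.18, adjusted p = 0.142), Lss by -0.35 (95% interval -0.50 to -0.20, adjusted p = 0.142), Nsdhl by -0.25 (95% interval -0.39 to -0.11, adjusted p = 0.258) and Cyp51 by -0.24 (95% interval -0.38 to -0.10, adjusted p = 0.264). Group means of Msmo1 were 9.93 with ApoE-Stab2-KO, 9.55 with Wildtype, 10.24 with ApoE-KO and 9.91 with ApoE-Stab1-KO plasma. For Lss they were 7.45 with ApoE-Stab2-KO, 7.09 with Wildtype, 7.80 with ApoE-KO and 7.57 with ApoE-Stab1-KO plasma. ApoE-Stab2-KO plasma gave values between those of Wildtype and ApoE-KO plasma for both genes.

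Hmgcs1 was 1 of the 6 genes that did pass against ApoE-KO plasma. It ran from 9.44 through a median of 9.56 to 9.64 with ApoE-Stab2-KO plasma and from 9.79 through 9.88 to 10.06 on the 5 ApoE-KO arrays, with no overlap. The difference was -0.34 (95% interval -0.46 to -0.22, adjusted p = 0.026). This count of 6 was not stable: leaving out 1 ApoE-Stab2-KO or ApoE-KO array gave 0 or 1 call, except that leaving out ApoE-KO replicate 5 gave 12.

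Some genes lay above both other knockout plasmas, again without passing. Suox differed by 0.24 (95% interval 0.10 to 0.38, adjusted p = 0.264) from ApoE-KO and by 0.22 (95% interval 0.09 to 0.36, adjusted p = 0.171) from ApoE-Stab1-KO plasma. Hs3st1 differed by 0.27 (95% interval 0.12 to 0.43, adjusted p = 0.264) and 0.19 (95% interval 0.04 to 0.34, adjusted p = 0.339), and Cyp26b1 by 0.26 (95% interval 0.05 to 0.47, adjusted p = 0.487) and 0.22 (95% interval 0.01 to 0.42, adjusted p = 0.425), in the same order. Itga6 lay below both, by -0.13 (95% interval -0.21 to -0.05, adjusted p = 0.333) and -0.12 (95% interval -0.20 to -0.05, adjusted p = 0.196).

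For the leading genes the differences from Wildtype plasma are given side by side; the 3 contrasts share the Wildtype arrays, so likeness between them is partly built in. Sprr1a differed by 1.09 with ApoE-Stab2-KO plasma, and by 1.16 for ApoE-KO and 0.96 for ApoE-Stab1-KO plasma. Sema3e differed by 0.48, and by 0.50 for ApoE-KO and 0.49 for ApoE-Stab1-KO plasma. Suox differed by 0.36, and by 0.12 for ApoE-KO and 0.13 for ApoE-Stab1-KO plasma. The intervals of Sprr1a and Sema3e between knockout plasmas included 0, and those of Suox did not. These intervals are not adjusted for the number of genes, and Suox did not pass in either contrast.

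**Figure D4:**
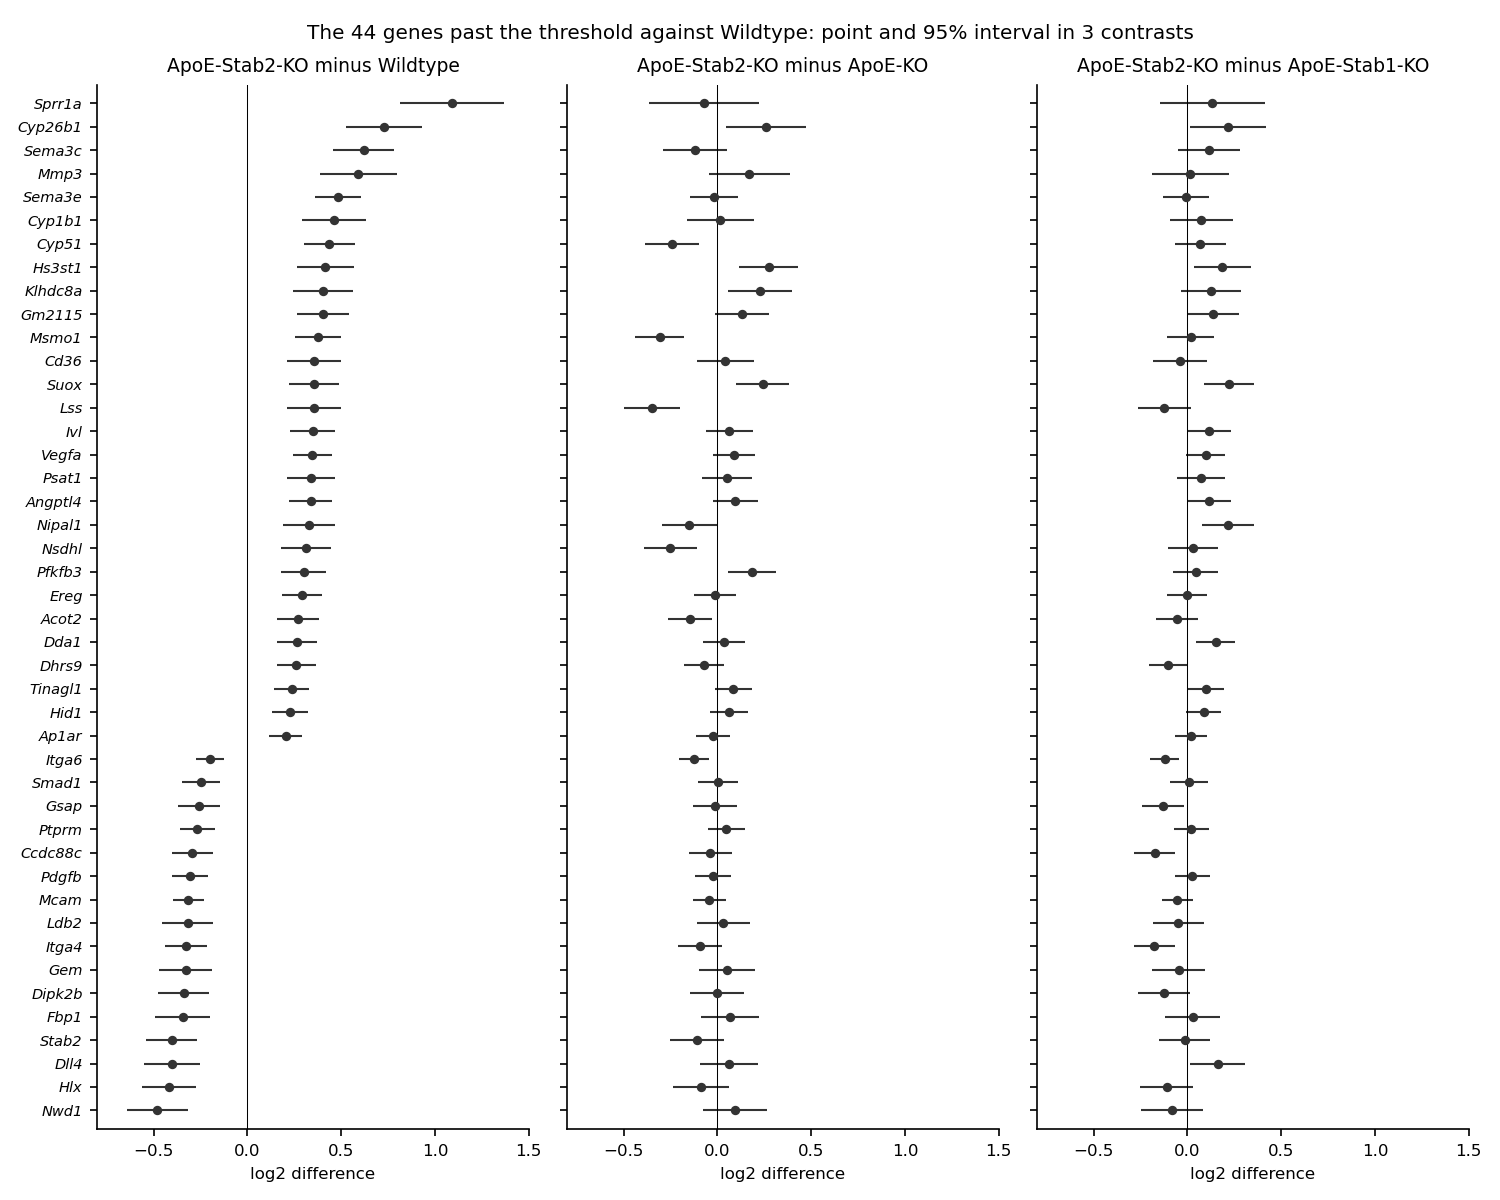
The 44 genes past the threshold against Wildtype plasma, ordered by that difference (left panel), with the log2 difference of ApoE-Stab2-KO from ApoE-KO (middle) and from ApoE-Stab1-KO plasma (right); points are differences and bars 95% intervals. In the left panel every interval excludes 0, as the choice of the genes fixes. In the middle panel 12 intervals exclude 0 and in the right panel 13, and 0 of these passed after adjustment.

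Genes that did separate ApoE-Stab2-KO from another knockout plasma were all outside the 44. Against ApoE-KO plasma 3 genes were higher (0.0121%), Mir1896, Gm16617 and Olfr372, and 3 lower (0.0121%), Hmgcs1, Havcr2 and Aqp4. Against ApoE-Stab1-KO plasma 9 were higher (0.0364%), Mir1896, Gm16617, Gm13609, 2610020C07Rik, Snord68, Gm34921, Rpl36-ps3, Gm4540 and Ecsit. Another 3 were lower (0.0121%), Aph1b, Cgn and A230072E10Rik. Mir1896 and Gm16617 passed in both, and 0 of the 16 genes passed against Wildtype plasma. Mean levels of Olfr372 (3.22), Aqp4 (3.51), A230072E10Rik (3.63), Gm34921 (3.97) and Gm16617 (4.16) lay below the median of 4.31 over all genes. Mir1896 (4.35) lay just above it. With protein-coding genes alone the count against ApoE-Stab1-KO plasma was 2. It was 37 without ApoE-Stab1-KO replicate 1, 32 without ApoE-Stab1-KO replicate 4 and 19 without ApoE-Stab2-KO replicate 6.

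Mir1896 encodes a microRNA. Its probe set ran from 4.71 through a median of 5.02 to 5.36 on the 6 ApoE-Stab2-KO arrays and from 3.56 through a median of 3.75 to 3.96 on the 6 ApoE-Stab1-KO arrays. The ApoE-KO arrays ran from 3.64 to 4.79 and the Wildtype arrays from 4.34 to 4.97, so the ApoE-Stab2-KO arrays overlapped with both of these groups and not with ApoE-Stab1-KO. The difference was 1.25 (95% interval 0.93 to 1.56, adjusted p = 0.000694) from ApoE-Stab1-KO, 0.94 (95% interval 0.61 to 1.27, adjusted p = 0.026) from ApoE-KO and 0.42 (95% interval 0.11 to 0.74, adjusted p = 0.401) from Wildtype plasma. The mature microRNA of this locus is shown to identify it, since the locus had the largest of these differences; the deposited values do not show which part of its transcript was measured. RefSeq gives the mature sequence on GRCm38.p6 at chr13:21445209-21445230 (+ strand), with its seed, bases 2 to 8, in capitals.
mmu-miR-1896: cUCUCUGAuggugggugaggag

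Gm13609, a long non-coding RNA gene, ran from 7.92 through a median of 8.03 to 8.21 on the 6 ApoE-Stab2-KO arrays and from 6.76 through a median of 7.14 to 7.48 on the 6 ApoE-Stab1-KO arrays. The groups did not overlap, and the difference was 0.91 (95% interval 0.63 to 1.19, adjusted p = 0.00487). Its group means were 8.05 with ApoE-Stab2-KO, 8.17 with Wildtype, 7.35 with ApoE-KO and 7.14 with ApoE-Stab1-KO plasma. The small nucleolar RNA gene Snord68 had group means of 9.69 with ApoE-Stab2-KO, 9.69 with Wildtype, 9.37 with ApoE-KO and 8.96 with ApoE-Stab1-KO plasma. For both, ApoE-Stab2-KO plasma gave values near those of Wildtype plasma: they differed from it by -0.13 (adjusted p = 0.859) and 0.00 (adjusted p = 0.997).

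**Figure D5:**
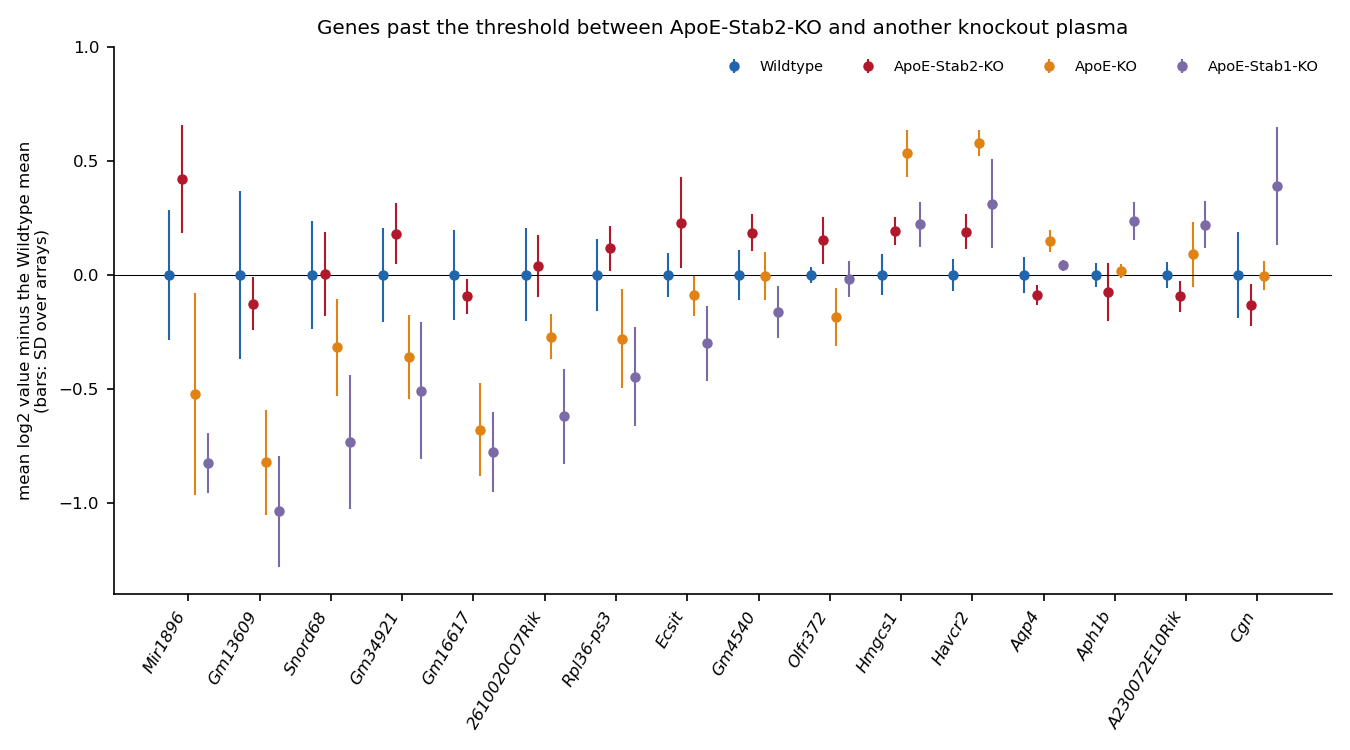
Mean log2 value of each plasma group minus the Wildtype mean (vertical), with the SD over arrays as bars, for the 16 genes that passed between ApoE-Stab2-KO and ApoE-KO or ApoE-Stab1-KO plasma. Mir1896, Gm13609 and Snord68 at the left have ApoE-Stab1-KO means (violet) far below the ApoE-Stab2-KO means (red), and 0 of the 16 passed between ApoE-Stab2-KO and Wildtype plasma.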

How the data were processed

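Per the submitters' processing notes, the authors made the deposited log2 values with RMA; its version and the build of the probe annotation were not given in the sources used here. Values ran from 2.52 to 13.9. Of 25428 probe sets, 24705 had 1 gene symbol in the platform annotation, 0 several and 723 none; the last were left out, and the brighter of 2 probe sets of a symbol was kept (24704 genes). The number of arrays limits the precision.

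limma 3.58.1 in R 4.3.3 (lmFit, eBayes without trend or robust settings) was fitted on all 23 arrays with 1 mean per group (19 residual and 4.19 prior degrees of freedom), with Benjamini-Hochberg adjustment over 24704 genes and no filter on dim genes. Errors of differences are standard errors. The fit was also run on simulated arrays in which known genes were changed. It recovered 58.2% of 67 genes changed by a log2 difference of 0.3, 88.1% of 67 at 0.5 and 100% of 66 at 1. Among the unchanged genes there were 10 false calls. The simulated noise was independent between genes and arrays, and more genes were changed, many by more, than the 44 called here. Recovery at 0.3 may therefore be lower in the real data. A gene that did not pass may thus still differ. Figures used matplotlib 3.10.9.

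The compared arrays, the 38 pathway lists (788 of 831 genes measured; the others not analysed here) and the 9 marker lists were chosen with earlier results of these data known. The rule for named genes took the 15 highest and 15 lowest called genes without predicted or small RNA names, up to 6 called members of each list described, or its 3 smallest p where none was called, Apoe, Stab1, Stab2, Tgfbi, Postn and Reln, and up to 10 genes called against each other knockout plasma. It names 36 of the 44; Itga6, Ap1ar, Hid1, Tinagl1, Dda1, Acot2, Nipal1 and Gm2115, Cgn, A230072E10Rik and the further genes given with values that did not pass were chosen after their values were seen. RefSeq promoters were found for 25 of the 28 higher and 11 of the 16 lower genes.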

Additional observations from a re-analysis of the deposited data

Results flagged for a closer look

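Single arrays that lay far from the other 5 of their group were looked for in 220 groups of 6 arrays (the named genes in both plasmas), and 15 were found by Dixon's test at its 95% level, which flags about 1 group in 20 by chance. No explanation was tested.

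Wildtype replicate 1 was such an array in 5 genes. It was low in Suox (6.78, others 7.01 to 7.10), in Krt19 (4.93, others 5.07 to 5.14) and in Aldh1l2 (4.75, others 5.31 to 5.53). It was high in Gm13609 (8.90, others 7.87 to 8.16) and in Plxnd1 (11.01, others 10.77 to 10.85). Wildtype replicate 5 was low in Tinagl1 (10.31, others 10.39 to 10.43) and in Lpl (4.06, others 4.47 to 4.66), and high in Krt20 (9.41, others 9.16 to 9.21). Wildtype replicate 2 was high in Fbp1 (6.83, others 6.50 to 6.60).

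With ApoE-Stab2-KO plasma, replicate 3 was high in Apoe (5.41, others 4.93 to 5.09) and in Lpl (5.59, others 4.70 to 4.93). Replicate 2 was high in 2 sterol genes, Lss (7.66, others 7.37 to 7.48) and Sc5d (9.50, others 9.35 to 9.40). Replicate 4 was high in Cd36 (10.59, others 10.44 to 10.50), and replicate 5 was low in Pfkfb3 (6.30, others 6.44 to 6.48).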

How the results depend on the processing

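Quantile normalization again, centring on the median, each probe set as its own feature, array weights, genes above the median level and protein-coding genes kept all 44 calls. Apart from array weights, these settings could change little, so the kept calls add little support. Sorted values of 2 arrays already differed by at most 0.0019, and 24705 probe sets gave 24704 genes. All 44 genes were protein-coding and above the median level. Trend and robust settings ended 4, the 2 groups alone 8 and a replicate block 12, namely Acot2, Ap1ar, Fbp1, Gem, Gsap, Hid1, Itga6, Klhdc8a, Ldb2, Lss, Nipal1 and Nsdhl (adjusted p of 0.0563 to 0.122). A fold of at least 1.5 left 4 higher and 0 lower genes. The replicate numbers are shared between groups, but same-numbered arrays deviated together at only -0.06 to 0.07. Such weak correlations over all genes cannot exclude that the samples are paired, so pairing remains unknown. The replicate block gave 22 higher and 12 lower genes, 0 against ApoE-KO and 9 against ApoE-Stab1-KO plasma.

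Against ApoE-KO plasma the count of 6 became 2 with genes above the median level, 18 with array weights, 1 with the 2 groups alone and 1 with the fold limit. Against ApoE-Stab1-KO plasma the count of 12 became 2 with protein-coding genes, 21 with trend and robust settings, 4 with the 2 groups alone and 6 with the fold limit. Genes above the median level moved list medians to 0.051 (PPAR), -0.051 (VEGF and PDGF), -0.011 (BMP), 0.063 (retinoid) and 0.098 (EGF). The cause was not tested where genes tested or arrays used stayed the same.

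With 1 array left out, higher genes numbered 13 to 28 and lower genes 7 to 15; 0 to 12 passed against ApoE-KO and 8 to 37 against ApoE-Stab1-KO plasma (37 without ApoE-Stab1-KO replicate 1, 32 without its replicate 4). List medians ran from -0.009 to 0.042 (scavenger receptors), -0.029 to 0.005 (VEGF and PDGF), -0.007 to 0.048 (BMP), 0.014 to 0.057 (retinoid), 0.008 to 0.053 (EGF) and 0.011 to 0.042 (proteases). Uncalled differences from Wildtype plasma turned sign with 1 array left out in 2610020C07Rik (-0.012 to 0.097), Gm13609 (-0.187 to 0.019), Tgfbi (-0.004 to 0.054) and Snord68 (-0.077 to 0.045; -0.001 with array weights).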

Other observations

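These gene families were chosen after values had been seen and are given as values only. Among 37 cornified envelope genes (Sprr, Lce, Ivl, Lor and Flg families), 2 were higher with ApoE-Stab2-KO than with Wildtype plasma, Sprr1a and Ivl, and 0 lower; the family's median difference was -0.002, and 5 of its genes lay above the median level of all genes. Of 49 keratin genes 0 passed, with Krt20 (0.23, adjusted p = 0.113) and Krt19 (0.23, adjusted p = 0.119) nearest. Of 31 integrin subunits 2 were lower, Itga4 and Itga6, and 0 higher, with Itgb2 the other way (0.29, adjusted p = 0.221).

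Of 13 acyl-CoA thioesterase genes 1 was higher, Acot2, and Acot1, a close paralog, differed by 0.39 (adjusted p = 0.119); whether probes of such similar genes share signal was not tested. All 4 Id genes had a positive difference, with 0 passing. Of 106 small nucleolar RNA genes 0 passed, the median was -0.05, and Snord4a differed by 0.49 (adjusted p = 0.0584). Just outside the threshold also lay Spin4 (0.36, adjusted p = 0.0621). The interferon-induced Rsad2 differed by -0.41 (adjusted p = 0.119) and the nuclear receptor Nr4a1 by -0.28 (adjusted p = 0.104).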
